A study of Mus musculus with 12 samples.

Results

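Testis RNA from Wobbler mice carrying a modifier was hybridised directly against testis RNA from Wobbler mice on 4 of the 12 two-colour cDNA arrays of the series, and the ratios on those 4 arrays are described here. The arrays were taken by their titles, replicates 1 to 4 of the pair, and all 9139 genes with a name that were measured well enough to test were examined, out of 14729 features in all. The other 8 arrays set each of the Wobbler genotypes against wildtype, with 4 arrays per pair. Per the labels, every channel held pooled RNA of 3 males on a Castaneus background, so that both sides of a ratio shared sex and background and differed in the modifier. The modifier is not named further in the labels, and no age is given. Modifier RNA was labelled with Cy5 on replicates 1 and 2 and with Cy3 on replicates 3 and 4.

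Wobbler is a recessive mutation of Vps54, which encodes a subunit of a complex that captures vesicles on their way back from endosomes to the Golgi. Homozygous mice lose motor neurons, and the males are infertile, with defects in how spermatids shape the sperm head and acrosome. Spermatids are the haploid cells that follow meiosis. During their elongation histones give way to transition proteins and then to protamines, and many transcripts are made ahead of time and stored until they are translated. Leydig cells, between the tubules, make the androgens that this process needs. No probe was named for Vps54, so the mutated gene itself has no value here, and neither genotype can be checked from its own transcript.

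All values are log2 ratios of modifier over Wobbler, turned so that a negative value means lower with the modifier. The orientation of the deposited ratios is not stated, so this direction is likely rather than certain, and if it were the other way every sign below would turn together. The 4 arrays held between 18841 and 19169 usable spots, with SDs between 0.74 and 0.87. Their medians were 0.16, 0.18, -0.07 and -0.04 for replicates 1 to 4, and the median over all features in the fit was 0.08. Across genes the arrays resembled each other little. Pearson's r was 0.13 for replicates 1 and 2, over 14274 features, and 0.07 for replicates 3 and 4, over 14321, and in both pairs the arrays share a dye orientation. For the pairs of opposite orientation r lay between 0.01 and 0.06. Spots were not filtered by brightness, since no intensities were used here. A ratio carries no level, so the abundance of testis markers in either pool could not be checked.

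Of 44 late spermatid genes measured, 8 were lower with the modifier, among them Tnp1, Tnp2, Prm1, Spz1 and Smcp, and so was Cyp17a1 of Leydig cells. With 1 mean per comparison and a dye term fitted by limma over all 12 arrays, 61 of 14729 features (0.414%) had a Benjamini-Hochberg adjusted p under 0.05. Of these, 44 were lower with the modifier (0.299%) and 17 were higher (0.115%). A gene name was attached to 33 of them, 28 lower and 5 higher. The 28 lower genes had a median of -0.88, and 9 of them were at -1.0 or below, a fall to 50% or less. All but 1 of the 61 features had the same sign on every array with a value. The exception was Fam24a, at 0.02 on replicate 2. The calls depended on single arrays and on the spread being shared with the other comparisons. Leaving out replicate 2 ended every call (limma, 1369 features at an unadjusted p under 0.05), leaving out replicate 1, 3 or 4 left 7, 23 and 25 calls, and the 4 arrays fitted alone gave 0 calls with limma, with 999 features at an unadjusted p under 0.05. Of the 33 named genes, 7 passed in 10 or more of the 12 fits that left out 1 array, and 17 passed in fewer than 6.

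**Figure D1:**
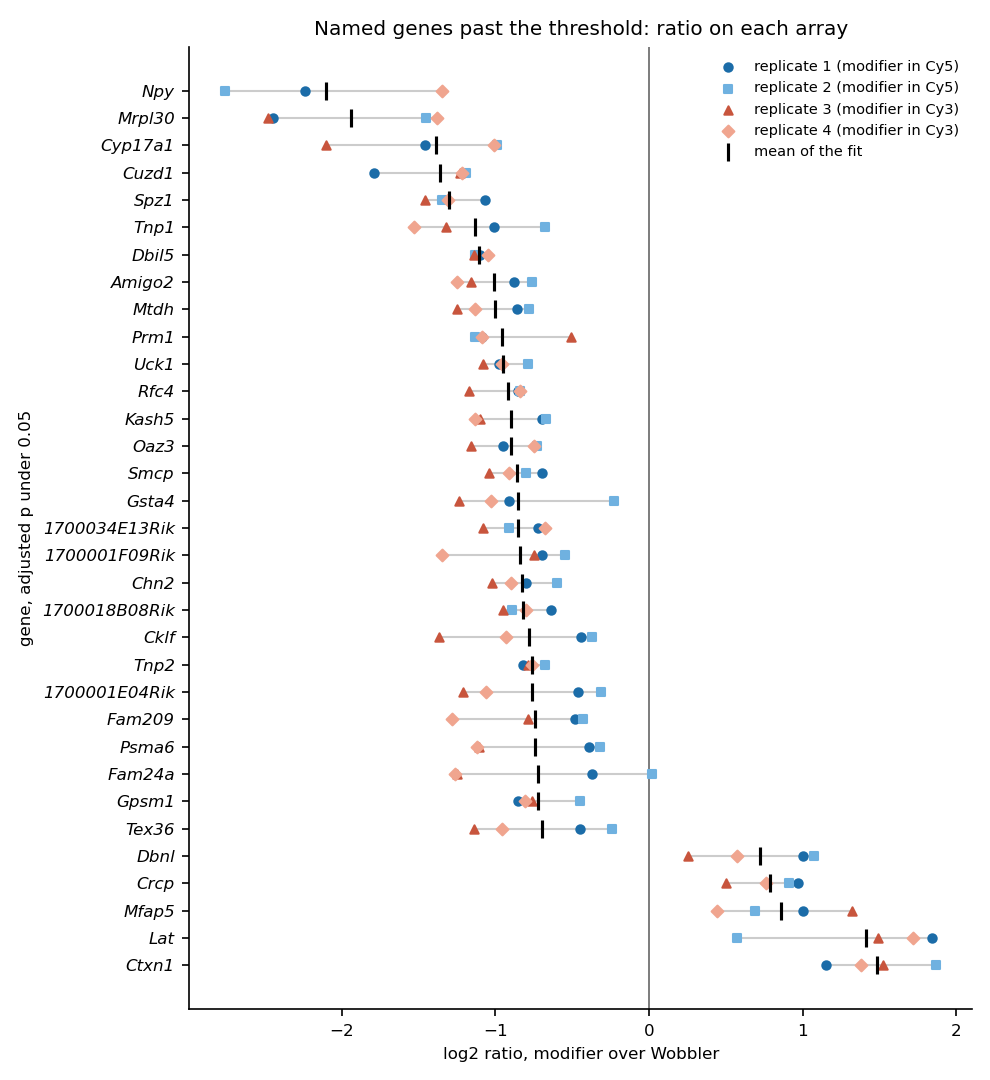
Log2 ratio of modifier over Wobbler (x axis) for each of the 33 named genes with an adjusted p under 0.05 (y axis), with 1 symbol per array, coloured by dye orientation, and a black tick at the mean of the fit. The 28 lower genes lie left of 0 on every array except Fam24a on replicate 2 (0.02), and the 5 higher genes lie right of 0 on every array.

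Among the genes of sperm chromatin, Tnp1, Tnp2 and Prm1 were lower, Prm2 just missed the threshold, and Prm3 was near 0. The list of protamines and transition proteins had 5 members, of which 3 were lower and 0 higher, while 2 did not pass the test, with a median of -0.96 against 0.08 over all features. Tnp2, Prm3, Prm2 and Prm1 lie in 1 cluster on chromosome 16, with Prm1 and Tnp2 3 genes apart in gene order. Their upstream sequences are shown because the 4 neighbours did not share 1 ratio: 3 stood between -0.76 and -1.20, and Prm3 stood at -0.16. Each sequence below is the 250 bases before the annotated start, from RefSeq on GRCm38.p6, written 5′ to 3′ on the minus strand, on which all 4 genes are read. The positions are chr16:10788656-10788905 for Tnp2, chr16:10790915-10791164 for Prm3, chr16:10792106-10792355 for Prm2 and chr16:10796824-10797073 for Prm1. Capitals mark letters matching a searched motif on either strand.
Tnp2: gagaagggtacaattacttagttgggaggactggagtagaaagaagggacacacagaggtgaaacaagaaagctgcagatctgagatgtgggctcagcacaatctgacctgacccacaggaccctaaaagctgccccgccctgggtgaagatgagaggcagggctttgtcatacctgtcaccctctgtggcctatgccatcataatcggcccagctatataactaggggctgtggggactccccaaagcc
Prm3: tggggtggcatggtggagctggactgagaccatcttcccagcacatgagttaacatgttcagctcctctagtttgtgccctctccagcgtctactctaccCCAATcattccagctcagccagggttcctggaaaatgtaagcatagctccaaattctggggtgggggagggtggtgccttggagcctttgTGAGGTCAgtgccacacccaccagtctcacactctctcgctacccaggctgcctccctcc
Prm2: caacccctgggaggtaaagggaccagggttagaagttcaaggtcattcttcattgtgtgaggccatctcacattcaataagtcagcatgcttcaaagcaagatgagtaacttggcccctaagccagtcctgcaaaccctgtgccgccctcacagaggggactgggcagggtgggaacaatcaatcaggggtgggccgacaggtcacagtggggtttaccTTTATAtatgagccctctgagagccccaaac
Prm1: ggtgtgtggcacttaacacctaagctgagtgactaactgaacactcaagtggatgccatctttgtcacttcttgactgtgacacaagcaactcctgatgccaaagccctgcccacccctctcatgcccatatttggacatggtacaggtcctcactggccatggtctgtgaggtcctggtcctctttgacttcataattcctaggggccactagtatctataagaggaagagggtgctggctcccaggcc
The motifs searched were the cAMP response element TGACGTCA, its variants TGACGCAA and TGACCTCA, the TATA box as TATAAA and the CCAAT box as CCAAT, which do not overlap one another in these windows. In Prm3, the variant TGACCTCA began 60 bases before the start and CCAAT began 150 bases before it. In Prm2, TATAAA began 31 bases before the start, and in Tnp2 and Prm1 none of these letters was found. Other variants of the response element were not searched, and these windows may hold them.

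The transition proteins replace histones before the protamines do. Tnp1 had log2 ratios of -1.01, -0.68, -1.32 and -1.53 on replicates 1 to 4. It was lower on all 4, more so on replicates 3 and 4, with a mean of -1.13 ± 0.13 (SE of the fit, n = 4 arrays), 2.19-fold lower (limma, adjusted p 0.00673). Tnp2 had ratios of -0.82, -0.68, -0.79 and -0.76. These values were close together, with an SD of 0.06, and gave a mean of -0.76 ± 0.13 (SE, n = 4; limma, adjusted p 0.0361). The protamines are the arginine-rich proteins that finally pack sperm DNA. Prm1 had ratios of -1.09, -1.13, -0.51 and -1.09, with replicate 3 apart from the other arrays and a mean of -0.96 ± 0.16 (SE, n = 4; limma, adjusted p 0.0361). Prm2 had ratios of -1.20, -1.08, -1.28 and -1.23, all below -1 and nearly equal. Its mean of -1.20 ± 0.21 (SE, n = 4) was larger in size than those of Prm1 and Tnp2, but its adjusted p of 0.0507 (limma) just missed the threshold. Prm3, a small acidic protein encoded between Prm2 and Tnp2, had ratios of -0.22, -0.20, -0.33 and 0.13, and a mean of -0.16 ± 0.15 (SE, n = 4; limma, adjusted p 0.772).

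Of the 54 genes of the wider late spermatid list, which holds the protamines and transition proteins, 44 were measured. Of these, 8 were lower and 0 higher, and 36 did not pass the test, where 0.299% of all features were lower and 0.115% higher. The list's median was -0.51, with quartiles of -0.87 and -0.19, against a median of 0.08 over all features. Of its 41 members with a value on all 4 arrays, 23 (56.1%) were below 0 on each, where 6.13% of all features were, and 0 were above 0 on each, where 11.2% of all features were. The list was written with earlier results of these data known, so these counts and shares describe its members and do not test for enrichment. The list's median was -0.46, -0.39, -0.62 and -0.67 on replicates 1 to 4, so it was negative on every array, while the median of all features was positive on the first pair and slightly negative on the second. Testis is a mixture of cells, and in these ratios fewer cells of a type and less RNA per cell cannot be told apart.

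Beside the chromatin genes, 5 spermatid genes passed the test. Spz1, a leucine-zipper transcription factor of male germ cells, had ratios of -1.07, -1.35, -1.46 and -1.31. Every array was below -1, and the mean was -1.30 ± 0.13 (SE, n = 4), 2.46-fold lower (limma, adjusted p 0.00529). The 2 probes of Spz1 gave -1.0 and -1.59. Spz1 passed in 11 of the 12 fits that left out 1 array, the most of any named gene, and not in the fit without replicate 2. Tnp1 and Smcp passed in 10 of these fits, Oaz3 in 9, Tex36 in 7, Prm1 in 4, Tnp2 in 3 and Dbil5 in 2. Dbil5, an acyl-CoA-binding peptide of haploid germ cells, had ratios of -1.10, -1.13, -1.14 and -1.05. The spread was an SD of 0.04, with a mean of -1.11 ± 0.19 (SE, n = 4; limma, adjusted p 0.0422). Its SE is larger than that spread because it rests on all 12 arrays. Oaz3, the spermatid form of antizyme, which restrains polyamine synthesis, had ratios of -0.95, -0.73, -1.16 and -0.75, with a mean of -0.90 ± 0.12 (SE, n = 4; limma, adjusted p 0.012). Smcp, a cysteine-rich protein of the mitochondrial capsule in the sperm midpiece, had ratios of -0.70, -0.80, -1.04 and -0.91, with a mean of -0.86 ± 0.10 (SE, n = 4; limma, adjusted p 0.00673). Both genes were lower by similar amounts on all arrays. Tex36, a gene named for its expression in testis, had ratios of -0.45, -0.24, -1.14 and -0.96. It was lower on all 4 arrays, but by more on the pair with modifier in Cy3, and its mean was -0.70 ± 0.10 (SE, n = 4; limma, adjusted p 0.019).

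**Figure D2:**
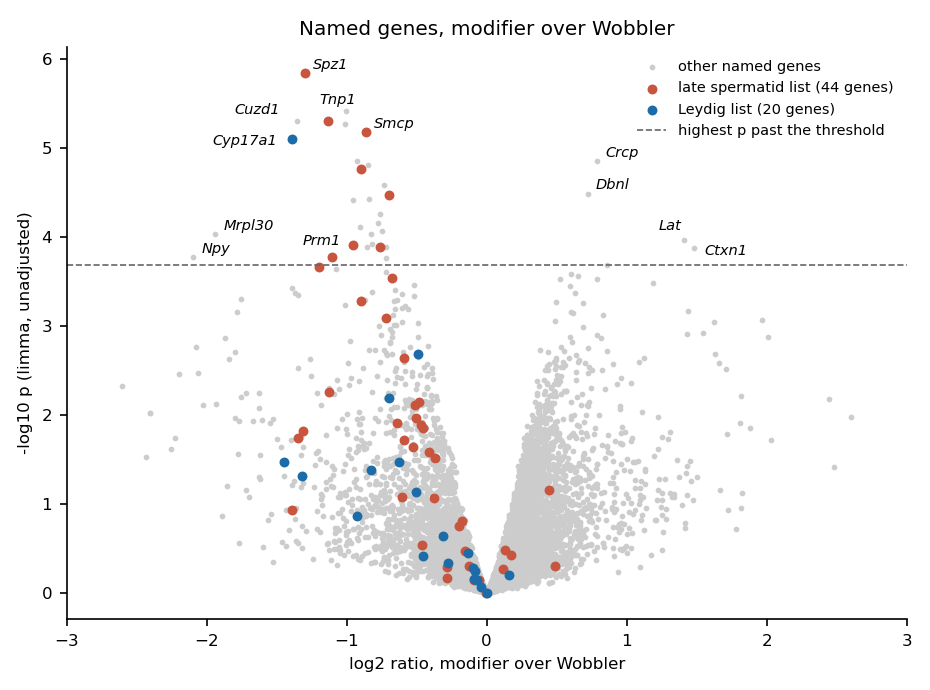
Each named gene by its log2 ratio of modifier over Wobbler (x axis) and by -log10 of its unadjusted limma p (y axis), with the 44 late spermatid genes in red and the 20 Leydig genes in blue; the dashed line marks the highest p that passed the threshold after adjustment. The 8 late spermatid genes and Cyp17a1 lie above the line on the lower side, and no member of either list lies above it on the higher side.

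Most late spermatid genes did not pass the test. Of the 36 members that did not pass, 30 had a negative mean. The nearest to the threshold after Prm2 were Pgk2, a phosphoglycerate kinase made in the germ line, at -0.68 ± 0.13 (SE, n = 4; limma, adjusted p 0.0559), and Cypt1, of the layer around the sperm nucleus, at -0.90 ± 0.18 (SE, n = 4; limma, adjusted p 0.0712). Cypt1 was at -1.10, -1.18 and -1.32 on replicates 1, 3 and 4 and at 0.02 on replicate 2. Ropn1, of the fibrous sheath of the sperm tail, stood at -0.72, and Hils1, a histone-like linker protein of spermatids, at -0.59. At the other end, several genes of the same list were near 0. The list was written by hand, and the stage at which each member is first transcribed was not examined. H1f6, the testis linker histone, was at 0.13 ± 0.13 (SE, n = 4), Pdha2, the germ cell subunit of pyruvate dehydrogenase, at 0.17 ± 0.19 (SE, n = 4), and Actl7b, an actin-like protein of the sperm head, at -0.06 ± 0.15 (SE, n = 4). Ldhc, the lactate dehydrogenase of sperm, was at -0.18 ± 0.11 (SE, n = 4). With SEs of this size a small difference was not detectable for these 4 genes. Tssk3, a testis-specific kinase, had the lowest mean of the list at -1.39, yet its arrays ran from -4.35 to 1.20 and its adjusted p was 0.555 (limma).

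The promoters of 39 of the 44 late spermatid genes were in the RefSeq table, and windows of 300 bases, 250 before to 50 after the start, were searched on both strands. TGACCTCA was found in 6 of the 39 (15.4%), namely Spata3, Spata20, Hils1, Prm3, Ropn1 and Hspa1l, against 2.32% of the named genes tested and 2.40% of all genes in the table. TGACGTCA was found in 0 of the 39, against 3.23% of the named genes tested and 2.03% of all genes, and TGACGCAA in 0, against 0.923% and 0.562%. TATAAA was found in 6 of the 39 (15.4%), against 9.73% and 15.7%, and CCAAT in 17 (43.6%), against 42.8% and 41.1%. Of the 28 named genes past the threshold on the lower side, 21 had a promoter in the table. Of these, 0 held any of the 3 response-element forms, which 6.30% of the named genes tested held. A count of 0 among 21 is near the background, and it covers only these 3 forms, since other variants were not searched. The 6 genes with TGACCTCA had log2 ratios of -0.13, -0.09, -0.59, -0.16, -0.72 and -0.37 in the order given, and none passed the test. Oaz3 and Cyp17a1 were not in the table. The list of CREM, the spermatid activator that binds such elements, its partners and other spermatid transcription factors had 14 measured members, with a median of 0.00. None passed the threshold, where 0.414% of all features did. Crem itself ran from -1.75 to 0.17 on the 4 arrays, with a mean of -0.70 ± 0.61 (SE, n = 4; limma, adjusted p 0.735).

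Lists for structures of the mature sperm had medians nearer to that of all features than the late spermatid list did. Of 31 sperm tail genes 1 was lower (Smcp) and 0 higher, with a median of -0.20. Akap4, the main anchoring protein of the fibrous sheath, was at -0.64 ± 0.21 (SE, n = 4), and Odf1, of the outer dense fibres, at -0.59 ± 0.21 (SE, n = 4), both below 0 on all arrays. The axonemal tektins Tekt1, Tekt2, Tekt3 and Tekt4 lay between -0.21 and -0.07. Of 28 genes of the acrosome and sperm surface none passed, where 0.414% of all features did, and the median was -0.11. The member with the smallest p was Adam3, a sperm surface protein needed for migration through the oviduct, at -0.59 ± 0.15 (SE, n = 4; limma, adjusted p 0.147). Among 23 isozymes of germ cell energy supply and detoxification 1 was lower and the median was -0.18. That gene was Gsta4, a glutathione transferase for products of lipid peroxidation, with ratios of -0.91, -0.23, -1.24 and -1.03 and a mean of -0.85 ± 0.14 (SE, n = 4; limma, adjusted p 0.0361). Its 2 probes disagreed, with means of -1.43 and -0.28. Txndc8, a thioredoxin of the acrosome, was below 0 on all arrays, from -2.66 to -0.78, with a mean of -1.76 ± 0.51 (SE, n = 4; limma, adjusted p 0.213).

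Lists of earlier germ cells had medians close to that of all features. The meiotic spermatocyte list had 22 measured members, of which 1 was lower and 0 were higher, with a median of 0.16. The lower gene was Kash5, which ties meiotic telomeres through the nuclear envelope to dynein, with ratios of -0.70, -0.67, -1.10 and -1.13 and a mean of -0.90 ± 0.14 (SE, n = 4; limma, adjusted p 0.0307). Syce2, of the central element of the synaptonemal complex, was next, at -0.65 ± 0.13 (SE, n = 4; limma, adjusted p 0.065). Ddx4, the germ cell helicase, was at 0.30 ± 0.12 (SE, n = 4) and Piwil1, which binds piRNAs in spermatocytes and round spermatids, at 0.28 ± 0.17 (SE, n = 4), and neither passed. Of 23 spermatogonial genes none passed and the median was 0.05. With 0.414% of all features past the threshold, no call in a list of this size is near the background. A further list, not tied to earlier germ cells, held the 57 genes whose symbols name spermatogenesis, testis or sperm. Of these 1 was lower, Tex36, and the median of -0.21 lay below that of all features (0.08). It shares 9 members with the late spermatid list and 6 with the acrosome list.

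**Figure D3:**
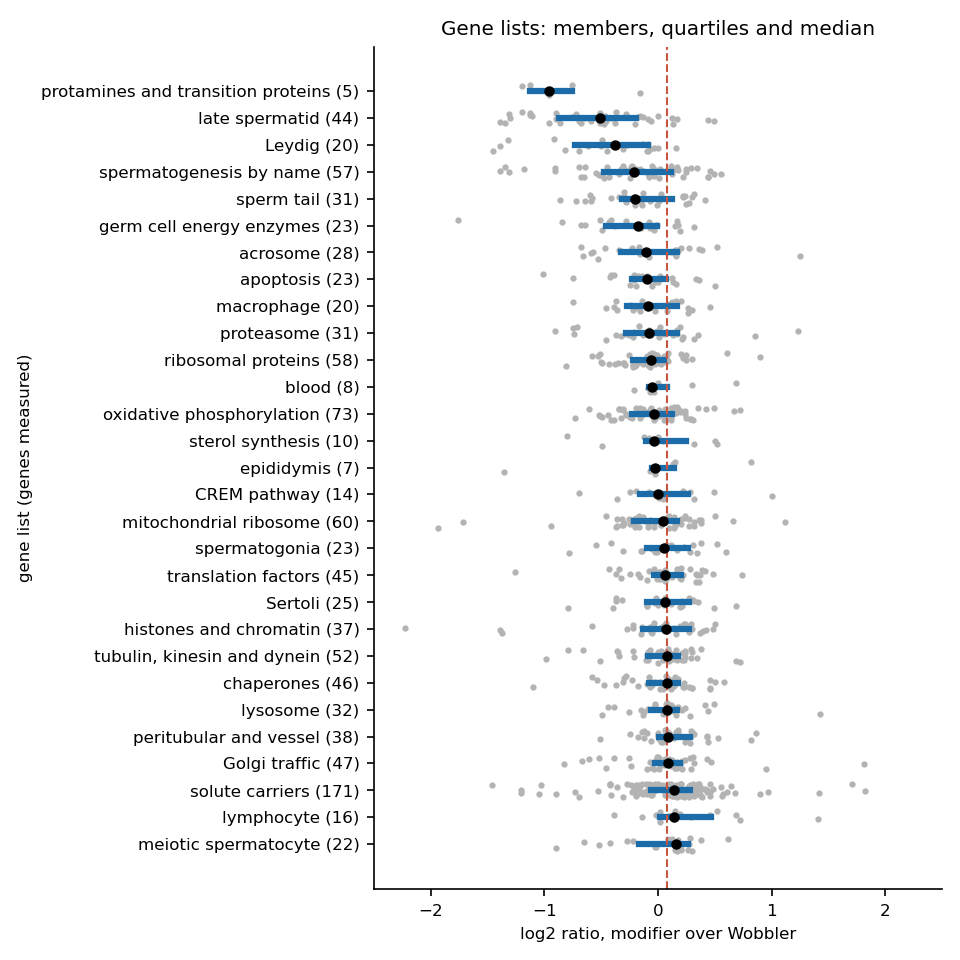
Log2 ratio of modifier over Wobbler (x axis) for the measured genes of the 29 lists (y axis, with the number measured), as grey points with the quartiles as a blue bar and the median as a black point; the dashed red line is the median of all features tested (0.08). The protamine, late spermatid and Leydig lists have the lowest medians, -0.96, -0.51 and -0.38.

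Among Leydig cell genes Cyp17a1 was lower, and most others had negative means that did not pass the test. Cyp17a1 encodes the hydroxylase and lyase that turns progestogens into androgens, and its ratios were -1.46, -0.99, -2.10 and -1.01. All arrays were at about -1 or below, and the mean was -1.39 ± 0.17 (SE, n = 4), 2.62-fold lower (limma, adjusted p 0.00726). It was the only one of the 20 measured Leydig genes to pass, with 0 higher and 19 not passing, where 0.299% of all features were lower. Over the 20 genes the median was -0.38, with medians of -0.03, -0.13, -0.63 and -0.40 on replicates 1 to 4. The medians of all features on the same arrays were 0.16, 0.19, -0.07 and -0.03, so the list lay below them on each array. Of 17 members with 4 values, 5 (29.4%) were below 0 on all arrays, where 6.13% of all features were, and 0 were above, where 11.2% of all features were. This list, too, was written with earlier results known. The share below 0 was similar in some germ cell lists: 34.8% for energy enzymes, 29.6% for genes named for spermatogenesis, 25.8% for the sperm tail and 18.5% for the acrosome. Beyond these, the late spermatid list and the protamine list, no list exceeded 14.3%.

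Steps of steroid synthesis on either side of Cyp17a1 had negative means that did not pass. Star, which brings cholesterol into mitochondria, had ratios of -0.17, -0.13, -0.90 and -0.81, with a mean of -0.50 ± 0.25 (SE, n = 4). Cyp11a1, the side-chain cleavage enzyme, had ratios of 0.01, -0.10, -0.50 and -0.66, with a mean of -0.31 ± 0.24 (SE, n = 4). Hsd3b1, the dehydrogenase that follows it, had ratios of -0.50, 0.05, -1.50 and -0.84, with a mean of -0.70 ± 0.20 (SE, n = 4; limma, adjusted p 0.219). For each of these 3 genes both values with modifier in Cy3 were below both values with modifier in Cy5. Hsd17b3, which makes testosterone, was measured on 3 arrays, at 0.04, -2.26 and -1.41. Nr5a1, the steroidogenic transcription factor of Leydig and Sertoli cells, was at -0.27 ± 0.36 (SE, n = 4). Of 10 measured genes of cholesterol synthesis none passed, where 0.414% of all features did, and their median was -0.04.

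Markers of the other somatic cells of the testis had medians near that of all features. Since 0.414% of all features passed, a list of such size without a call is near the background. The Sertoli list had a median of 0.06 with 0 of 25 members passing, and Sox9, the Sertoli transcription factor, was at 0.49 ± 0.13 (SE, n = 4; limma, adjusted p 0.155). The peritubular and vessel list had a median of 0.09, and 1 of 38 members was higher. The macrophage list had a median of -0.09 and the blood list one of -0.05, both with no member passing. The lymphocyte list had a median of 0.14 and 1 of 16 members higher. Of 7 measured genes of the epididymis, which lies against the testis and can be taken with it, Cuzd1 was lower and the other members, among them Lcn5, Lcn8 and Adam7 at 0.13, -0.07 and -0.03, did not pass. The next 3 lists cover machineries around the Wobbler protein, and with 0.414% of all features past the threshold, no call in lists of this size is near the background. Golgi and endosome traffic genes had a median of 0.09 with 0 of 47 passing, lysosomal genes one of 0.08 with 0 of 32, and chaperones one of 0.08 with 0 of 46. Oxidative phosphorylation and ribosomal protein genes had medians of -0.04 and -0.06, with 0 of 73 and 0 of 58 passing. In all, 17 of the 29 lists had no member past the threshold, with medians from -0.11 to 0.14. At a share of 0.414% over all features, no call in any of these lists is near the background.

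Several of the lower genes belong to none of the germ cell or Leydig lists. Npy, the neuropeptide Y precursor, had the lowest mean of the named calls but a value on only 3 arrays, at -2.24, -2.76 and -1.35 on replicates 1, 2 and 4. Its mean was -2.10 ± 0.32 (SE, n = 3), 4.28-fold lower (limma, adjusted p 0.0422). Mrpl30, of the large subunit of the mitochondrial ribosome, had ratios of -2.45, -1.45, -2.48 and -1.38, with a mean of -1.94 ± 0.31 (SE, n = 4; limma, adjusted p 0.0335). It stood alone in its list of 60 measured mitochondrial ribosomal proteins, whose median was 0.04. Cuzd1, a membrane protein with CUB and zona pellucida-like domains, had ratios of -1.79, -1.19, -1.23 and -1.22. Replicate 1 was the lowest, and the mean was -1.36 ± 0.15 (SE, n = 4; limma, adjusted p 0.00673). Fam24a lies 2 genes from Cuzd1 in gene order, and its ratios were -0.37, 0.02, -1.25 and -1.26. It was near 0 in the first dye orientation and strongly negative in the second, with a mean of -0.72 ± 0.12 (SE, n = 4; limma, adjusted p 0.0361).

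The remaining lower genes were varied. Amigo2, an adhesion protein with leucine-rich repeats, had ratios of -0.88, -0.76, -1.16 and -1.25, with a mean of -1.01 ± 0.12 (SE, n = 4; limma, adjusted p 0.00673). Mtdh, the membrane and RNA-binding protein metadherin, had ratios of -0.86, -0.78, -1.25 and -1.13, with a mean of -1.0 ± 0.11 (SE, n = 4; limma, adjusted p 0.00673). Both were lower on each array, by amounts close to those of Tnp1. Uck1, a kinase of uridine and cytidine, was at -0.95 ± 0.14 (SE, n = 4), and Rfc4, a subunit of the clamp loader of DNA replication, at -0.92 ± 0.12 (SE, n = 4). Chn2, which inactivates Rac, was at -0.83, Cklf, a chemokine-like factor, at -0.78, and Gpsm1, a modulator of G-protein signalling, at -0.72. Psma6, of the outer ring of the proteasome core, had ratios of -0.39, -0.32, -1.11 and -1.12. The mean was -0.74 ± 0.10 (SE, n = 4; limma, adjusted p 0.0168), while the 31 measured proteasome genes had a median of -0.08 with no other call. Fam209, a partner of the nuclear membrane protein that anchors the acrosome, was at -0.74 ± 0.12 (SE, n = 4). The last 4 carry clone names: 1700034E13Rik at -0.85, 1700001F09Rik at -0.84, 1700018B08Rik at -0.82 and 1700001E04Rik at -0.76.

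Only 5 named genes were higher, and they have different functions. Ctxn1, a small membrane protein best known from cortical neurons, had ratios of 1.15, 1.87, 1.52 and 1.38, all above 1. Its mean was 1.48 ± 0.25 (SE, n = 4), 2.79-fold higher (limma, adjusted p 0.0366). Lat, the adaptor of the T cell receptor, had ratios of 1.84, 0.57, 1.49 and 1.72 and a mean of 1.41 ± 0.23 (SE, n = 4; limma, adjusted p 0.0354), but its 2 probes gave 2.22 and 0.59. No other member of the lymphocyte list passed, and Cd5, the nearest, was at 0.69 ± 0.15 (SE, n = 4; limma, adjusted p 0.0979). Mfap5, of elastic microfibrils, had ratios of 1.0, 0.69, 1.32 and 0.44, with a mean of 0.86 ± 0.15 (SE, n = 4; limma, adjusted p 0.0495). Crcp, which serves a peptide receptor and RNA polymerase III, had ratios of 0.97, 0.91, 0.50 and 0.76, with a mean of 0.79 ± 0.10 (SE, n = 4; limma, adjusted p 0.011). Dbnl, which links actin to endocytosis and other membrane traffic, had ratios of 1.0, 1.07, 0.25 and 0.57, with a mean of 0.72 ± 0.10 (SE, n = 4; limma, adjusted p 0.019). Crcp and Dbnl were higher on every array, by more on the pair with modifier in Cy5. A further 28 features without a gene name passed, 16 lower and 12 higher, with means from -2.61 to 1.55.

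The size of most differences varied with the dye orientation. For 23 of the 28 lower named genes the mean of replicates 3 and 4 was below that of replicates 1 and 2, and the median over the 28 genes was -0.79 on the first pair and -1.11 on the second. The array medians differed in the same direction, 0.16 and 0.18 against -0.07 and -0.04. Over the late spermatid list, the median of the members' means was -0.41 on the first pair and -0.69 on the second. Psma6, Fam24a, Tex36, Cklf and 1700001E04Rik showed the widest gaps of this kind, and Dbil5, Tnp2 and Mrpl30 showed nearly none. The dye term of the fit, which removes such an offset within a feature, itself passed the threshold for 1 of 14729 features, and its median was 0.15.

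**Figure D4:**
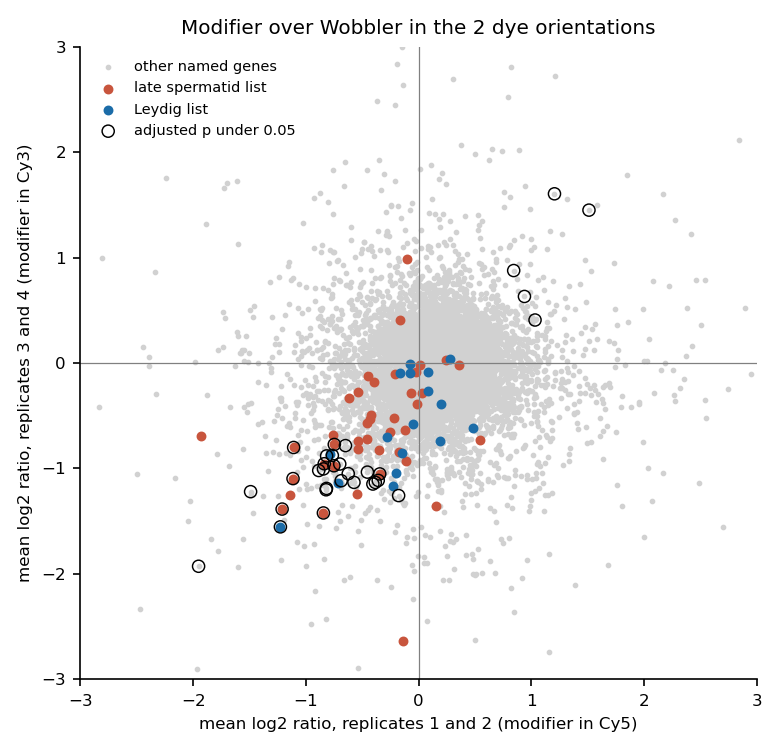
Mean log2 ratio of modifier over Wobbler on replicates 1 and 2 (x axis, modifier in Cy5) against replicates 3 and 4 (y axis, modifier in Cy3) for 8698 named genes with a value on all 4 arrays, 13 of which lie outside the axes; circled points passed the adjusted p of 0.05. The circled genes lie in the lower left and upper right, where both orientations have the same sign, and most late spermatid genes (red) lie in the lower left.

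The same difference can be read indirectly, as modifier over wildtype minus Wobbler over wildtype, from the 8 other arrays. These arrays use the same genotypes and possibly the same pools, and both readings enter 1 fit. Replicate 2 of Wobbler over wildtype was the widest of all arrays, with an SD of 1.61. For several lower genes both readings were close. Tnp1 was at -1.13 directly and -1.16 indirectly, Smcp at -0.86 and -0.70, and Prm1 at -0.96 and -0.85. Cuzd1 was at -1.36 and -1.16 and Amigo2 at -1.01 and -0.99. Cyp17a1 was lower still indirectly, at -2.01, and so was Spz1, at -1.81. Cyp17a1 was at -2.03 ± 0.17 (SE, n = 4) in modifier over wildtype and at -0.02 ± 0.17 (SE, n = 4) in Wobbler over wildtype. Over the 28 lower named genes the median was -0.88 directly, -0.99 in modifier over wildtype and -0.02 in Wobbler over wildtype.

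For a few lower genes the indirect reading went elsewhere, and for all 5 higher genes it was nearer to 0 or negative. Npy was at -2.10 directly and at 0.34 ± 0.42 (SE) indirectly, Mrpl30 at -1.94 and 0.77 ± 0.44 (SE), and Rfc4 at -0.92 and -0.22 ± 0.17 (SE). Among the higher genes, Ctxn1 was at 1.48 and -0.46 ± 0.35 (SE), Lat at 1.41 and -0.31 ± 0.32 (SE), and Crcp at 0.79 and 0.14 ± 0.14 (SE). Mfap5 was at 0.86 and 0.23 ± 0.22 (SE), and Dbnl at 0.72 and 0.27 ± 0.14 (SE). Of the 28 lower named genes, 26 were negative in the indirect reading too. The difference between the readings was tested in the same fit and passed for 4 of 14729 features, none of them among the 61. For Mrpl30 it was -2.71 ± 0.54 (SE; limma, adjusted p 0.349) and for Ctxn1 1.94 ± 0.43 (SE; limma, adjusted p 0.438). The test therefore leaves wide intervals and does not show that the readings were alike.

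**Figure D5:**
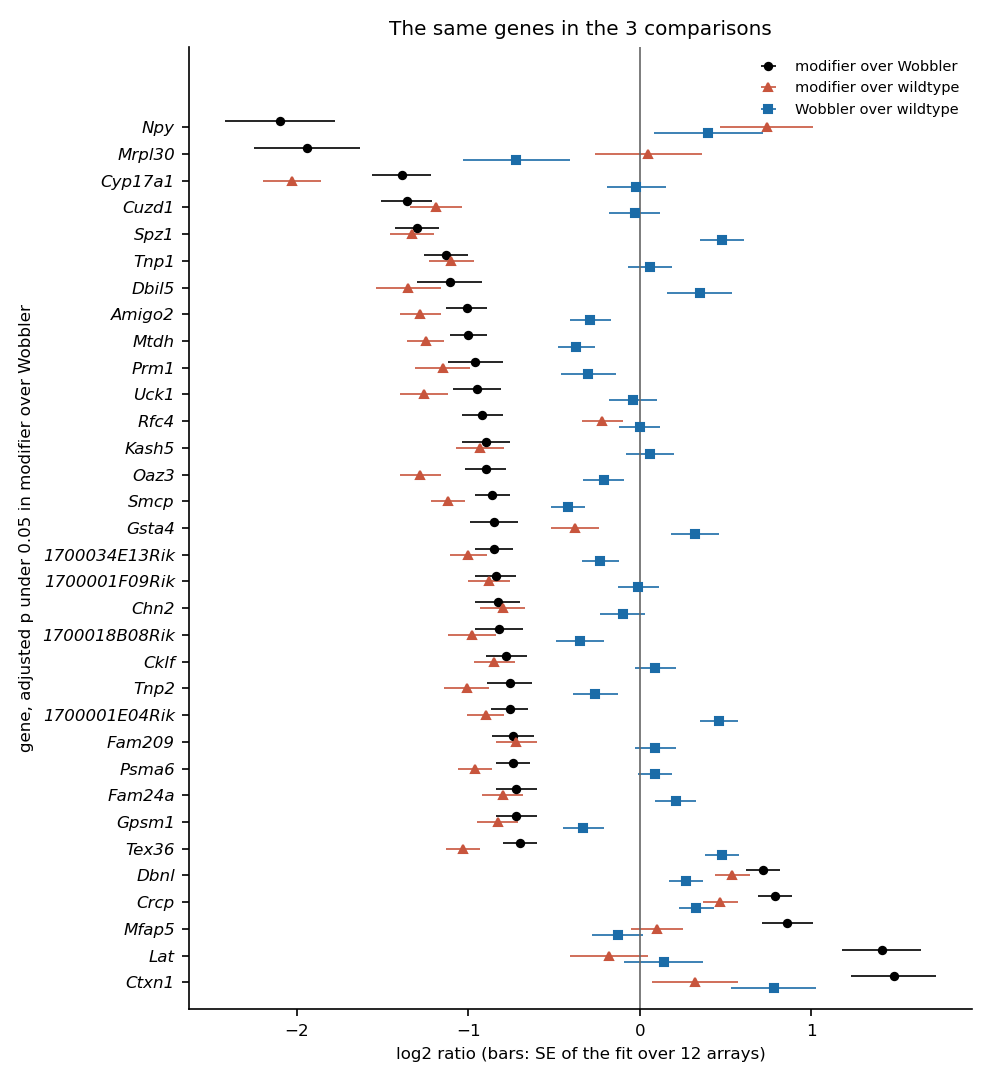
Log2 ratio (x axis) of the 33 named genes with an adjusted p under 0.05 (y axis) in modifier over Wobbler (black circles), modifier over wildtype (red triangles) and Wobbler over wildtype (blue squares), with bars of 1 SE of the fit over 12 arrays. For most lower genes the red triangles lie near the black circles while the blue squares lie nearer to 0; Npy, Mrpl30, Rfc4, Mfap5, Lat and Ctxn1 have red triangles far from the black circles.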

How the data were processed

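The series gives log2 ratios that the authors deposited, 1 for each spot of 12 arrays. How they were scanned, background-corrected and normalized is not given in the sources used here, and no intensities were used. Values of arrays with exchanged dyes were multiplied by -1. A repeated value near 16, log2(100000) above a shift common to the array, was read as a code and set missing on 145 to 165 spots of each of the 4 arrays.

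Of 20355 probes, 14030 carried a single gene symbol, 5 several and 6320 none. Probes of 1 symbol were averaged, and 14729 of 16255 features, those present on 3 or more of the 4 arrays in each comparison, were kept.

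The model (limma 3.58.1, R 4.3.3) had a mean for each comparison and a dye term, with Benjamini-Hochberg adjustment over all features, and its SEs pool the spread over 12 arrays. No label says that arrays came from separate pools, so p-values may reflect technical spread alone. The fit was tested on simulated data, residuals with signs turned at random plus known changes, which cannot show what shared pools would do. The members, the gene lists and the alternatives were chosen with earlier results of these data known. The rule for names took every named gene past the threshold and, from each list, the 4 smallest p-values and the first 2 measured members; others were chosen after their values were seen. The labelling protocol speaks of 6 control animals as a reference, but the channel labels were followed.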

Additional observations from a re-analysis of the deposited data

Results flagged for a closer look

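Among 200 groups of 4 array values examined (the genes named by the rule and the list medians), 12 held 1 array whose distance from its nearest neighbour exceeded the critical value of Dixon's test. Chance alone marks about 1 group in 20. Of the 12, 5 fell on replicate 3, 3 each on replicates 2 and 4, and 1 on replicate 1.

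Genes past the threshold were among them. Prm1 was at -0.51 on replicate 3 and between -1.13 and -1.09 elsewhere. Cuzd1 was at -1.79 on replicate 1 and between -1.23 and -1.19 elsewhere. Rfc4 was at -1.17 on replicate 3 and between -0.85 and -0.84 elsewhere. For each, the array that stood apart had the same sign as the others.

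The other 9 did not pass the test. Fgl2 was at 3.25 on replicate 2 and from 0.72 to 0.92 elsewhere. Uso1, a vesicle tether of the Golgi, was at 5.21 on replicate 4 and from 0.40 to 1.05 elsewhere. Rab11a, of recycling endosomes, was at -1.50 on replicate 2 and from -0.46 to -0.35 elsewhere. Lamc1 was at 0.64 on replicate 2. Replicate 3 stood apart for Cox7a2 (-0.78), Sox30 (-0.64) and Ddx4 (-0.16, against 0.41 to 0.51 elsewhere). Replicate 4 stood apart for Mvk (-1.20) and Slc12a2 (1.20, against 0.20 to 0.24 elsewhere).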

How the results depend on the processing

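The median of the late spermatid list stayed between -0.58 and -0.45 and that of the Leydig list between -0.45 and -0.32 when 1 of the 12 arrays was left out. The number of calls was less stable. It ran from 0 to 25 when 1 of the comparison's own arrays was left out and from 24 to 128 when 1 of the other 8 was, with 128 calls without replicate 2 of Wobbler over wildtype. That array had the widest spread of the 12, with an SD of 1.61, where the next widest had 0.995. Of its deposited values 13.9% were above 2. It enters the SE of every call in the main fit. Late spermatid genes past the threshold ran from 0 to 10 over the 12 fits. Centring the arrays gave 85 calls and scaling them 77. Without a dye term there were 7 calls and 1 late spermatid gene, with the 4 arrays alone 0 and 0, with or without a dye term (limma, 999 to 1288 features at an unadjusted p under 0.05), in the loop model 207 and 14, with each probe on its own 110, and among named features only 32. Leaving out spots at whole-number ratios, an alternative chosen after seeing the data, gave 65. With the replicate number as a block in place of the dye term, 24 features and 3 late spermatid genes passed. Same-numbered arrays deviated together with r from -0.03 to 0.07. The 4 arrays of this comparison themselves correlated only at r from 0.01 to 0.13, so such a check cannot tell whether equal numbers share pools. The labels do not say what the numbers pair.

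Without turning the swapped arrays, 0 features passed (limma, 1325 at an unadjusted p under 0.05), 0 late spermatid genes among them. By construction of that setting the signs change: the late spermatid median was 0.10, the Leydig median 0.17, and the log2 ratios that changed sign were 1700001E04Rik 0.37, 1700001F09Rik 0.21, 1700018B08Rik 0.06, 1700034E13Rik 0.03, Amigo2 0.19, Chn2 0.13, Cklf 0.37, Cyp17a1 0.16, Fam209 0.29, Fam24a 0.54, Gpsm1 0.07, Gsta4 0.28, Kash5 0.22, Lat -0.20, Mfap5 -0.02, Mtdh 0.19, Oaz3 0.06, Psma6 0.38, Rfc4 0.08, Smcp 0.11, Spz1 0.09, Tex36 0.35, Tnp1 0.29, Tnp2 0.01 and Uck1 0.07. Over the other alternatives no named gene past the threshold changed sign. The planned removal of values found on 5 or more spots was not run, since it leaves 19 features.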
